A study of Mus musculus with 5 samples.

Results

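The genes described here make, use and break down NAD in the mouse heart. They are 10 listed genes: the salvage enzymes Nampt, Nmnat1, Nmnat3 and Nmrk2, the nicotinamide methyltransferase Nnmt, the sirtuins Sirt1, Sirt3 and Sirt5, and the NAD consumers Cd38 and Parp1. They were listed by symbol for their roles in NAD metabolism, and they and the other gene lists below were chosen with earlier results of these data known. Of the 10, 9 had an array probe annotated with that symbol alone, among 22180 genes with such a probe, and the 9 each had 1 such probe. Cd38, which encodes a surface enzyme that cleaves NAD, had none and was not analysed here.

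Antagonist hearts (n = 3) came from wild-type C57Bl6J mice given a REV-ERB alpha antagonist into the peritoneum 4 h and again 1 h before the procedure, with 10 µM stated as the dose. Sham hearts (n = 2) came from wild-type C57Bl6J mice without the antagonist, and the labels state neither the compound, nor a vehicle, nor the age of the mice. All 5 hearts were taken at zeitgeber time 12 and perfused outside the body on a Langendorff apparatus. They went through 20 min of stabilisation, 20 min without flow and 20 min of reperfusion, so no heart was free of ischemia. The samples are labelled as biological replicates, 1 array a heart. The comparison addresses whether blocking REV-ERB alpha before ischemia alters NAD gene transcripts in the reperfused heart.

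NAD is a redox carrier and is also a substrate that sirtuins and poly(ADP-ribose) polymerases split, which releases nicotinamide. NAMPT turns nicotinamide back into nicotinamide mononucleotide, the limiting step of salvage, and NMNAT enzymes turn the mononucleotide into NAD. In mouse liver and fibroblasts Nampt is known as a target of the clock activators CLOCK and BMAL1, which bind E-boxes, while REV-ERB alpha represses the gene of BMAL1. In heart muscle this salvage route is the main source of NAD.

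The arrays were alike in overall level, with medians from 3.92 to 3.95 on the log2 scale. The 12 ventricular muscle markers had the highest summed linear level of the marker lists, from 43748 to 46774 over the 5 hearts. All of them were above the level filter, as were all atrial, fibroblast, endothelial and macrophage markers, whereas 6 of 7 lymphocyte markers with a probe were below it. Antagonist replicate 2 stood apart in atrial genes, with 5 of 6 atrial markers highest there. The summed linear level of those 6 ranged from 3649 to 11777 in antagonist hearts and from 3345 to 4310 in sham hearts. On the same array 5 of 8 adipocyte markers were highest. Ucp1, Cidec, Retn, Plin1 and Adipoq measured 6.49, 7.03, 7.65, 5.52 and 4.83 there. Their highest values in the other hearts were 3.47, 4.75, 5.31, 3.84 and 3.05. The summed level of the 8 ranged from 5649 to 6210 in antagonist hearts and from 5663 to 5691 in sham hearts. Lpl and Fabp4, the brightest of the 8, weighed most in that sum and were highest on antagonist replicate 3, so it shows little of this rise. The median log2 difference was 0.76 for the atrial markers and 0.70 for the adipocyte markers, and -0.0047 and 0.12 without antagonist replicate 2. Macrophage markers were higher in 6 of 9 cases, with a median of 0.074. The groups did not overlap for 3 higher (Cd14, C1qa and Fcgr1), beside 6.19% of all tested genes, and 1 lower (Cd68), beside 6.33%. These genes were named after their values were seen. The summed level of the 9 macrophage markers ranged from 1505 to 1794 in antagonist hearts and from 1581 to 1612 in sham hearts. Of 8 fibroblast markers, 6 were lower, 2 of them without overlap, beside 6.33% of all tested genes. The median of the 8 was -0.20, or -0.35 without sham replicate 1 and -0.035 without sham replicate 2, where 6 of the 8 were highest. Their summed level ranged from 3360 to 3982 in antagonist hearts and from 3709 to 3964 in sham hearts. The part of these cells in the NAD gene values was not tested. In whole tissue, fewer cells of a type and less RNA per cell cannot be told apart.

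Promoter windows from RefSeq (GRCm38.p6, 250 bases before to 50 after the annotated start) are shown because they bear on the clock link: that of Nampt, and those of Sirt1 and Parp1, the genes whose windows held the canonical E-box. Capitals mark the E-box CACGTG in Sirt1 and Parp1 and the nuclear receptor half-site AGGTCA in Nampt, a half-site that REV-ERB alpha shares with other nuclear receptors. The Nampt window lies at chr12:32820085-32820384 on the + strand, the Sirt1 window at chr10:63338986-63339285 on the - strand and the Parp1 window at chr1:180568641-180568940 on the + strand.
Nampt: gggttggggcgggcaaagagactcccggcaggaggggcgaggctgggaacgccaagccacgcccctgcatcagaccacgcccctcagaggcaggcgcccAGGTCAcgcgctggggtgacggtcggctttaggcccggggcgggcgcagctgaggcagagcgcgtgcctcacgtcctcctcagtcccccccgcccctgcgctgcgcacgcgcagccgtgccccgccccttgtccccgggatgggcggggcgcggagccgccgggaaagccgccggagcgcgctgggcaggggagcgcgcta
Sirt1: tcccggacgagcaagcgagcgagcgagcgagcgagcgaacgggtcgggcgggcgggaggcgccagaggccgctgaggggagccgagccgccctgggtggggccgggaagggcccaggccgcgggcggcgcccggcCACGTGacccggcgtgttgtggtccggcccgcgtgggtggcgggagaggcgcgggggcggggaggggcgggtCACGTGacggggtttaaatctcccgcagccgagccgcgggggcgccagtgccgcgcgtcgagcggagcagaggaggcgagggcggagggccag
Parp1: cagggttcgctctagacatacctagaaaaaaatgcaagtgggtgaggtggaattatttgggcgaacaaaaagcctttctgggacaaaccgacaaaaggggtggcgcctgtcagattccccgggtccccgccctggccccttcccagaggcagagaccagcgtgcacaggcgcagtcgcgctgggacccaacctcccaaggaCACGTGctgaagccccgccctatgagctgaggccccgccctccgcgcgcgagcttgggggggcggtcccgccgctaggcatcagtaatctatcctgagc
Windows were available for 9 of the 10 genes, all but Nnmt, with 11 windows in all, and both strands were searched. The counts below are of genes, whereas the percentages are of windows. The E-box CACGTG occurred in 2 of the 9 genes, Sirt1 (2 copies, starting 115 and 43 bases before the start) and Parp1 (1 copy, 49 bases before), and in 7.15% of all 32851 windows. The variant CACGTT occurred in 0 of the 9 genes and in 4.68% of windows, and the D-box TTATGTAA in 0 of the 9 and in 0.938%. AGGTCA occurred in 3 of the 9, Nampt (151 bases before the start), Nmnat3 and Sirt5, and in 16.3% of windows. The marked motifs do not overlap one another. A match is a description of the sequence, and these letters missing from a window say nothing of more distant sites.

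Transcripts of the 9 measured genes differed little between antagonist and sham hearts. Across them the log2 difference, antagonist minus sham, ran from -0.17 for Nnmt to 0.076 for Nmrk2, with 4 genes higher, 5 lower and a median of -0.02, which was 0.029 without sham replicate 2. The median absolute difference was 0.051, beside 0.072 over all 15294 tested genes. None of the 9 passed limma's test at an adjusted p under 0.05, where 0% of all tested genes were called, and 0 of the 9 had an unadjusted limma p under 0.05, where 4.60% of all tested genes did. The groups did not overlap for 1 of the 9, Nmrk2, beside 12.5% of all tested genes. It was higher, as were 6.19% of all tested genes, and 0 of the 9 were lower without overlap, beside 6.33%. All 9 passed the level filter. Without antagonist replicate 2, the array with high atrial and fat genes, the differences ran from -0.20 for Nnmt to 0.099 for Nampt, with a median of -0.026. For Nampt that array was the only antagonist heart within the sham range, so leaving it out had to separate the groups. The limma adjusted p for Nampt was then 0.70.

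**Figure D1:**
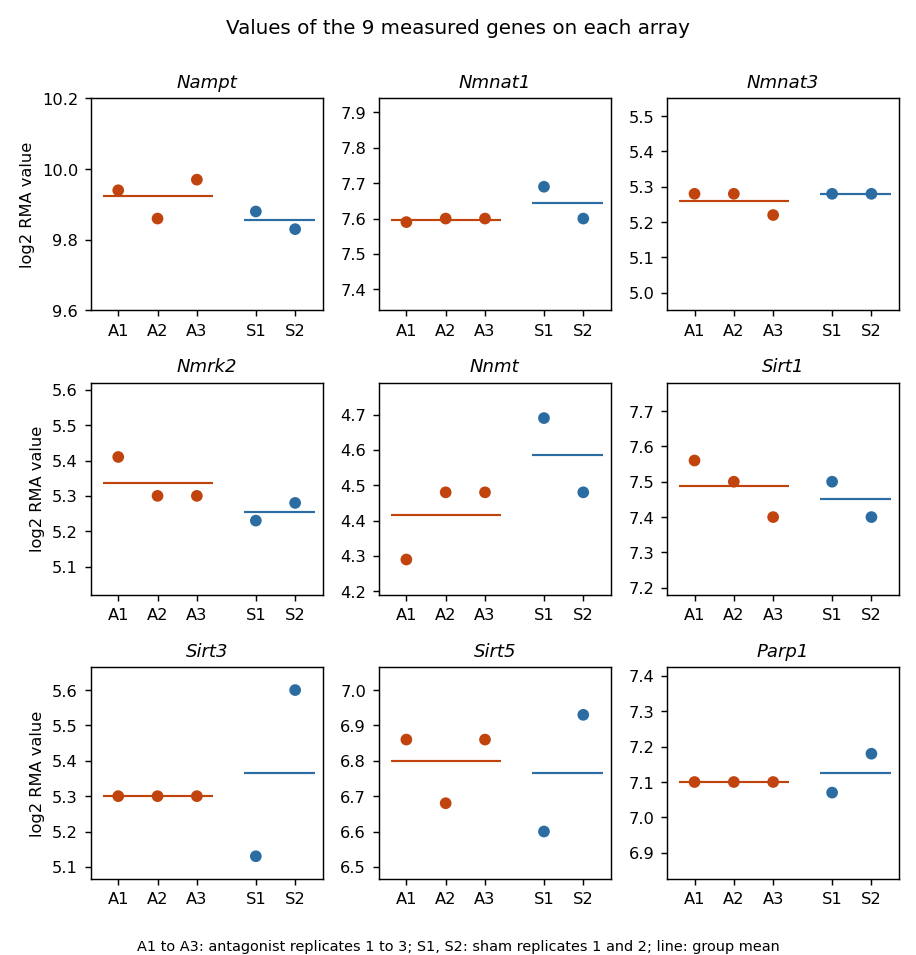
Each panel plots the log2 RMA value of a gene (vertical axis, 0.6 log2 units in every panel) on antagonist replicates 1 to 3 (A1 to A3) and sham replicates 1 and 2 (S1, S2), with a line at each group mean. The groups are apart only for Nmrk2, and for Sirt3, Sirt5 and Parp1 the sham hearts lie on either side of the antagonist hearts.

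Nampt, the enzyme gene of the limiting salvage step, measured 9.94, 9.86 and 9.97 in antagonist hearts and 9.88 and 9.83 in sham hearts. Antagonist replicates 1 and 3 lay above both sham hearts and replicate 2 lay between them, so the groups overlapped. Antagonist hearts averaged 9.92 ± 0.06 (SD, n = 3) and sham hearts 9.86 ± 0.034 (SD, n = 2). That is 0.067 ± 0.044 (SE) on the log2 scale, or 1.05 times the sham level with a 95% interval from 0.96 to 1.14. The adjusted p from limma was 0.64 and the exact two-sided permutation p was 0.30. With single arrays left out, the difference lay between 0.041, without antagonist replicate 3, and 0.099, without antagonist replicate 2.

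Nmrk2, a muscle kinase that turns nicotinamide riboside into nicotinamide mononucleotide, measured 5.41, 5.30 and 5.30 in antagonist hearts and 5.23 and 5.28 in sham hearts. Each antagonist heart was above each sham heart, by a narrow margin for replicates 2 and 3. The log2 difference was 0.076 ± 0.047 (SE), or 1.05-fold with a 95% interval from 0.96 to 1.16 (limma adjusted p = 0.64). The exact permutation p was 0.30, above the 0.10 that is the smallest this design allows. Without antagonist replicate 1 the difference was 0.039, and the groups overlapped after a second quantile normalization or after centring each array on its median.

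Nmnat1, the nuclear enzyme that completes NAD synthesis, measured 7.59, 7.60 and 7.60 in antagonist hearts and 7.69 and 7.60 in sham hearts. Sham replicate 1 alone was high, and the other 4 hearts were nearly equal. It differed by -0.051 ± 0.035 (SE; limma adjusted p = 0.64), and it was -0.0018 without sham replicate 1. Nmnat3, which codes for the mitochondrial enzyme of the same step, measured 5.28, 5.28 and 5.22 in antagonist hearts and 5.28 and 5.28 in sham hearts. Only antagonist replicate 3 departed from a shared value, and the log2 difference was -0.02 ± 0.025 (SE; limma adjusted p = 0.74).

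Nnmt, which methylates nicotinamide and so takes it out of salvage, had the largest difference of the 9. It measured 4.29, 4.48 and 4.48 in antagonist hearts and 4.69 and 4.48 in sham hearts. Antagonist replicate 1 was lowest, sham replicate 1 was highest, and the other 3 hearts were equal. The log2 difference was -0.17 ± 0.10 (SE), or 0.89-fold with a 95% interval from 0.72 to 1.09 (limma adjusted p = 0.64, exact permutation p = 0.30). Without sham replicate 1 it was -0.066, and without sham replicate 2 it was -0.28. Nnmt is known to be abundant in fat, and the part of fat in its values was not tested. On antagonist replicate 2, where 5 of 8 adipocyte markers were highest, Nnmt measured 4.48, tied with antagonist replicate 3 and sham replicate 2.

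Among the sirtuins, Sirt1, the nuclear deacetylase gene, measured 7.56, 7.50 and 7.40 in antagonist hearts and 7.50 and 7.40 in sham hearts. The values interleaved, with a log2 difference of 0.037 ± 0.064 (SE; limma adjusted p = 0.82) and a 95% interval of the fold from 0.90 to 1.17. Its sign turned to -0.0014 without antagonist replicate 1 and to -0.011 without sham replicate 2.

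Sirt3, the main mitochondrial deacetylase gene, measured 5.30 in each of the 3 antagonist hearts, against 5.13 and 5.60 in sham hearts. The antagonist values were exactly equal and the sham hearts lay on either side of them. The log2 difference was -0.066 ± 0.16 (SE; limma adjusted p = 0.88), and the 95% interval of the fold, from 0.70 to 1.30, was wide. Sirt5, whose mitochondrial product removes succinyl groups, measured 6.86, 6.68 and 6.86 in antagonist hearts and 6.60 and 6.93 in sham hearts. As for Sirt3, every antagonist value lay between the sham values, and the log2 difference was 0.034 ± 0.13 (SE; limma adjusted p = 0.95), with a 95% interval of the fold from 0.79 to 1.33. Without sham replicate 1 the difference for Sirt5 was -0.13, and without sham replicate 2 it was 0.20.

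Parp1, which uses NAD to build poly(ADP-ribose) at DNA breaks, measured 7.10 in each of the 3 antagonist hearts, against 7.07 and 7.18 in sham hearts. The antagonist values were exactly equal and lay between the sham values. Antagonist minus sham came to -0.026 ± 0.038 (SE; limma adjusted p = 0.78), or 0.98-fold with a 95% interval from 0.91 to 1.06.

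**Figure D2:**
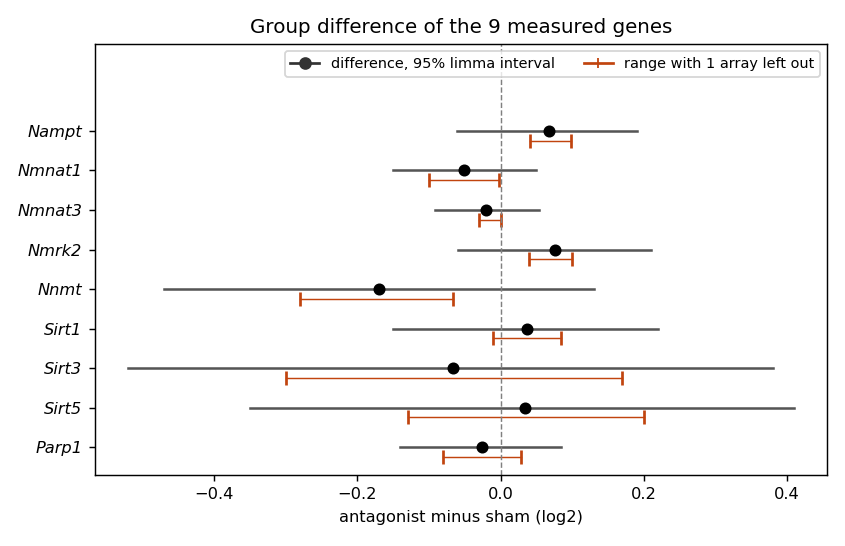
Antagonist minus sham on the log2 scale (horizontal axis) is plotted for the 9 measured genes. Points are differences with their 95% limma intervals, and red bars are the range when 1 array is left out. All 9 intervals include 0, and the widest is that of Sirt3, from -0.52 to 0.38. Intervals of genes with tied values need not measure the spread between hearts.

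The choice of sham heart decided both size and sign for Sirt3, Sirt5 and Parp1. For these genes all antagonist values lay between the sham values. Leaving out either sham heart therefore had to separate the groups, with opposite signs. With sham replicate 1 left out, Sirt3 was at -0.30 (limma adjusted p = 0.0033) and Parp1 at -0.081 (limma adjusted p = 0.0092). With sham replicate 2 left out, Sirt3 was at 0.17 (limma adjusted p = 0.0027), Parp1 at 0.029 (limma adjusted p = 0.041) and Nmnat1 at -0.10 (limma adjusted p = 0.0097). So 2 of the 9 genes were called without sham replicate 1, beside 8.62% of all tested genes, and 3 of the 9 without sham replicate 2, beside 13.5%. In these fits a lone sham array, assumed to vary like the antagonist arrays, is set against antagonist values that are exactly or nearly equal, so the small error need not measure the spread between hearts. The groups did not overlap for 5 of the 9 genes without sham replicate 1, beside 42.1% of all tested genes, and for 6 of the 9 without sham replicate 2, beside 52.7%.

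The sham hearts differed from each other by more than the groups did for 6 of the 9 genes, all but Nampt, Nmnat3 and Nmrk2. The same held for 58.4% of all tested genes. Tied values were common: for 8 of the 9 genes at least 2 arrays had the same value, as for 73.9% of all tested genes, and Nampt was the exception.

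Around these genes, 5 further lists held 55 NAD genes, 51 of them with a probe of 1 symbol and 45 above the level filter. By difference, 21 were higher, 21 lower and 3 equal, with a median of 0.00 beside 0.00 over all tested genes. None of the 45 passed limma's test (smallest adjusted p 0.64), and 1 had an unadjusted limma p under 0.05. The groups did not overlap for 5 of the 45, or 11.1%, which is near the 12.5% of all tested genes: Pnp, Nt5e and Parp6 were higher and Nudt12 and Parp8 were lower with the antagonist.

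**Figure D3:**
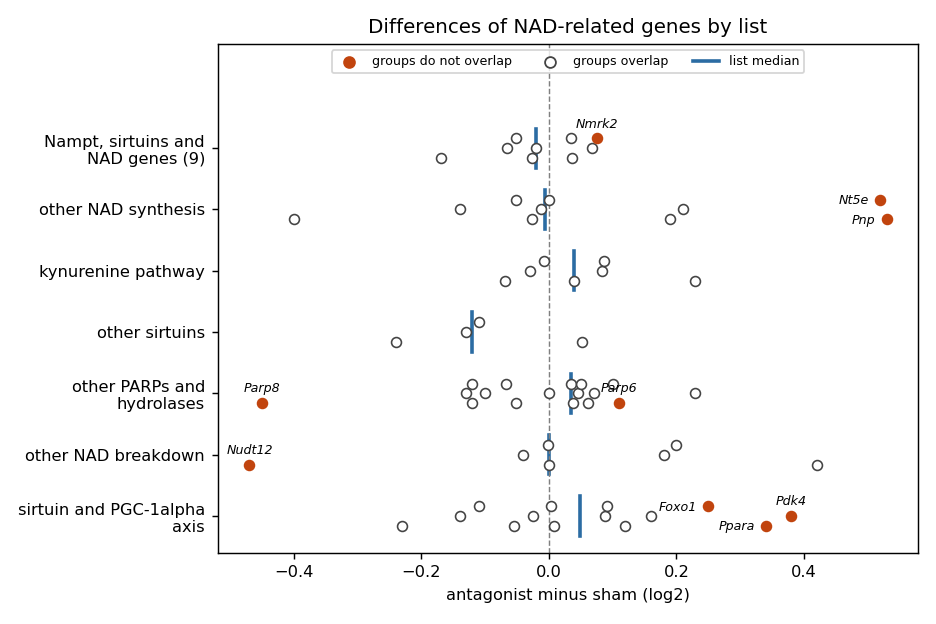
Each point is a tested gene, placed by antagonist minus sham (log2, horizontal axis) and by its list, with blue bars at list medians. Filled points mark genes whose groups do not overlap, and Pnp and Nt5e lie farthest to the right at 0.53 and 0.52.

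Of the other synthesis genes, 4 were higher, 5 lower and 1 equal among 10 tested, with a median of -0.0066, or 0.025 without sham replicate 2. Pnp, a phosphorylase of purine nucleosides that also cleaves nicotinamide riboside, measured 5.05, 5.65 and 5.06 in antagonist hearts and 4.68 and 4.77 in sham hearts. Antagonist replicate 2, the array with high atrial and fat genes, was highest for Pnp, and the other 2 antagonist hearts were also above both sham hearts. On the log2 scale Pnp differed by 0.53 ± 0.23 (SE; limma adjusted p = 0.64, exact permutation p = 0.10), and 0.33 without antagonist replicate 2.

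Nt5e encodes CD73, a surface enzyme that makes adenosine from AMP and can make nicotinamide riboside from its mononucleotide. It measured 6.45, 6.53 and 6.90 in antagonist hearts and 6.44 and 5.76 in sham hearts. Antagonist replicate 1 and sham replicate 1 were almost equal, so the gap between groups was narrow. The log2 difference was 0.52 ± 0.28 (SE; limma adjusted p = 0.64), 0.18 without sham replicate 2 and 0.86 without sham replicate 1.

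The lowest difference among the synthesis genes was that of Nmrk1, the second nicotinamide riboside kinase gene, described after its values were seen. Nmrk1 measured 4.96, 5.08 and 4.78 in antagonist hearts and 5.61 and 5.08 in sham hearts. Sham replicate 1 was high and sham replicate 2 equalled antagonist replicate 2, so the groups overlapped. The difference came to -0.40 ± 0.21 (SE; limma adjusted p = 0.64, exact permutation p = 0.20). It was -0.14 without sham replicate 1 and -0.67 without sham replicate 2.

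Sirtuin genes outside the 9 were lower in 3 of 4 cases, with a median of -0.12, and 0 of the 4 had groups without overlap. Sirt2, which encodes a mainly cytosolic deacetylase, had a log2 difference of -0.24 ± 0.15 (SE; limma adjusted p = 0.64) and Sirt6, a chromatin deacetylase gene, one of -0.13 ± 0.11 (limma adjusted p = 0.66). Sirt2 measured 9.66, 9.77 and 9.77 in antagonist hearts and 10.19 and 9.77 in sham hearts. Sham replicate 1 alone was high, and without it the difference was -0.035, against -0.45 without sham replicate 2. For Sirt6 the difference was -0.04 without antagonist replicate 3.

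PARP family members and the enzymes that remove ADP-ribose went both ways, 9 higher, 7 lower and 1 equal of 17 tested, with a median of 0.034. Parp8 measured 6.87, 6.76 and 6.69 in antagonist hearts and 7.36 and 7.08 in sham hearts, all antagonist values being below both sham values. Its log2 difference was -0.45 ± 0.11 (SE; limma adjusted p = 0.64, exact permutation p = 0.10), -0.30 without sham replicate 1 and -0.59 without sham replicate 2. Parp8 was the 1 gene of the 45 with an unadjusted limma p under 0.05. Parp6 differed by 0.11 ± 0.053 (limma adjusted p = 0.64), or by 0.033 without sham replicate 1 and 0.18 without sham replicate 2.

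NAD breakdown genes gave 3 higher, 3 lower and 1 equal of 7 tested, with a median of 0.00. Nudt12, whose product hydrolyses NADH, measured 6.77, 6.67 and 6.81 in antagonist hearts and 7.59 and 6.86 in sham hearts. The distance came mostly from sham replicate 1: the log2 difference was -0.47 ± 0.25 (SE; limma adjusted p = 0.64) and -0.11 without that array, or -0.84 without sham replicate 2 (limma adjusted p = 0.031). Bst1, a relative of Cd38 that also cleaves NAD, measured 4.68, 5.12 and 4.65 in antagonist hearts and 4.12 and 4.68 in sham hearts. The groups overlapped for Bst1, with a log2 difference of 0.42 ± 0.26 (SE; limma adjusted p = 0.64). It was 0.14 without sham replicate 1, 0.69 without sham replicate 2 and 0.27 without antagonist replicate 2.

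**Figure D4:**
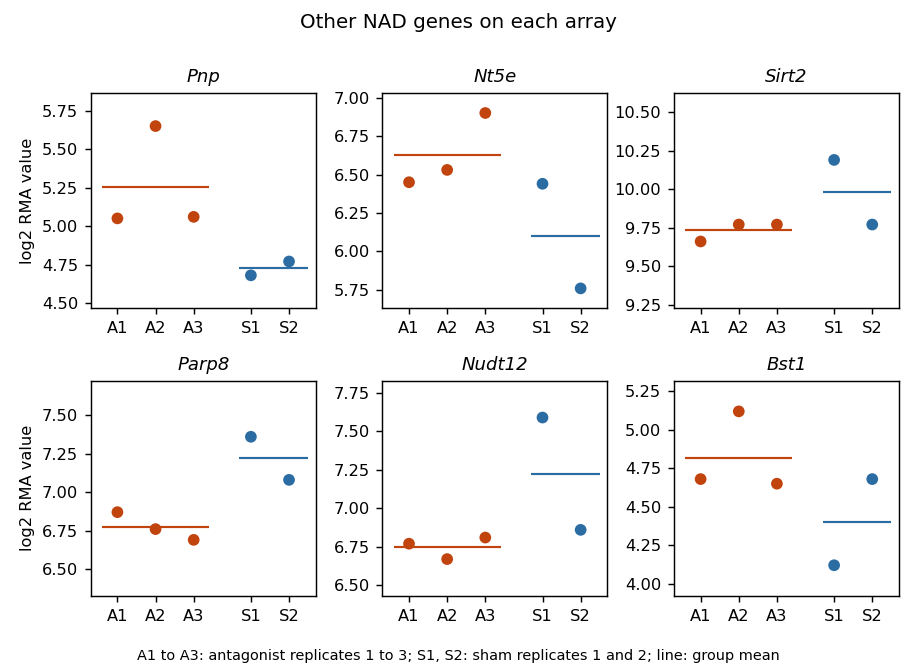
The panels give log2 RMA values (vertical axis, 1.4 log2 units in every panel) of 6 other NAD genes on the antagonist (A1 to A3) and sham (S1, S2) arrays, with group means as lines. Pnp peaks on A2 at 5.65, and Sirt2 and Nudt12 peak on S1 at 10.19 and 7.59.

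The kynurenine pathway, which makes NAD from tryptophan mainly in liver and kidney, was measured in part. Of its 11 genes, 4 (Tdo2, Kmo, Kynu and Aadat) were below the level filter. The 7 others had a median difference of 0.04, with 4 higher and 3 lower, and 0 of the 7 had groups without overlap. Without sham replicate 1 the median was -0.002 with 2 of 7 higher, and without sham replicate 2 it was 0.079. Kyat1, a kynurenine aminotransferase gene, differed most, by 0.23 ± 0.14 (SE; limma adjusted p = 0.64), followed by the formamidase gene Afmid at 0.086 ± 0.06 (limma adjusted p = 0.64). Kyat1 was at 0.03 without sham replicate 1 and at 0.44 without sham replicate 2. Afmid was at -0.002 without sham replicate 1 and at 0.17 without sham replicate 2 (limma adjusted p = 0.0045).

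Partners and products of sirtuin signalling were higher in 9 of 14 tested genes, with a median of 0.049, and 0 of the 14 passed limma's test. Without sham replicate 1 the median was -0.015, with 7 of 14 higher. Groups did not overlap for 3 of the 14, all higher, where 6.19% of all tested genes were. Pdk4, a kinase gene that restrains glucose oxidation, measured 10.91, 10.73 and 10.81 in antagonist hearts and 10.29 and 10.59 in sham hearts, a log2 difference of 0.38 ± 0.12 (SE; limma adjusted p = 0.64). Ppara, the receptor gene of fatty acid oxidation, differed by 0.34 ± 0.20 (limma adjusted p = 0.64), but by 0.057 without sham replicate 1 and 0.62 without sham replicate 2. Foxo1, a transcription factor that SIRT1 deacetylates, differed by 0.25 ± 0.13 (limma adjusted p = 0.64) with a second probe at 0.15. Its difference was 0.40 without sham replicate 1 and 0.094 without sham replicate 2. Pdk4 was at 0.22 without sham replicate 1 and at 0.53 without sham replicate 2.

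Of 12 tested genes of the clock itself, 4 were higher, 7 lower and 1 equal, with a median of -0.017, and 0 of the 12 passed limma's test. Their groups did not overlap for 5 of the 12, beside 12.5% of all tested genes, in a list chosen with earlier results of these data known. Arntl, Nfil3 and Cry1 (log2 difference 0.073) were the 3 higher, and Dbp and Per3 (-0.20) the 2 lower. Clock, Npas2 and Cry2 were at 0.0086, 0.00 and -0.0015. An unadjusted limma p under 0.05 was found for 3 of the 12, beside 4.60% of all tested genes. Arntl, which encodes BMAL1, measured 4.70, 4.79 and 4.66 in antagonist hearts and 4.21 and 4.57 in sham hearts, a log2 difference of 0.33 ± 0.13 (SE; limma adjusted p = 0.64). It was 0.15 without sham replicate 1 and 0.51 without sham replicate 2. Nfil3, a repressor of the clock's output, differed by 0.67 ± 0.081 and the activator gene Dbp by -0.50 ± 0.14, both without overlap (limma adjusted p from 0.62 to 0.64). Nr1d1, which encodes REV-ERB alpha, overlapped between groups and differed by -0.28 ± 0.23 (limma adjusted p = 0.66), by -0.44 without antagonist replicate 1 and by -0.11 without antagonist replicate 3. The 95% interval for Arntl, from -0.043 to 0.71, included 0, as did that for Nampt, and no test compared the genes with each other.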

How the data were processed

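Per the labels' protocols, 300 ng of total RNA from each of 5 hearts was labelled with an Affymetrix whole-transcript kit and hybridised to an array. The deposited values are log2 expression made by the authors with RMA, per the submitters' processing notes, with no version given. That method equalises the arrays, so a shift common to all genes would not be seen. Probes were named from the platform annotation: 23521 of 41345 had 1 symbol, 1814 several and 16010 none. The probe of highest mean stood for each gene, and 15294 genes whose mean reached 3.42, the 40th percentile over probes, entered the test.

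The test was limma 3.58.1 under R 4.3.3 (lmFit, eBayes, two-sided, no covariates; prior degrees of freedom 0.69 beside 3 residual), and p-values were adjusted by Benjamini-Hochberg over the 15294 genes. SE and 95% intervals are limma's moderated ones, and folds are powers of 2 of the difference. Exact two-sided permutation tests of the absolute difference of means used the 10 divisions of the arrays into 3 and 2. Precision is limited by how few arrays there are. The fit was tested on simulated data. How well it does for genes with tied values, 73.9% of all tested genes, was not tested.

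Members and lists were chosen with earlier results of these data known. Named beyond the 9 genes are, per list, up to 4 genes of largest difference whose groups do not overlap, or the 2 largest where fewer than 2 exist, and 4 clock genes. Adprh, Adprhl1, Enpp1 and Parp10, like Cd38, had no probe of their symbol alone. Replicate numbers are shared by both groups, but no label says that they mark pairs.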

Additional observations from a re-analysis of the deposited data

How the results depend on the processing

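Of 126 alternative values for the 9 genes, 118 neither turned their sign nor crossed the threshold, among them Nmnat3 at 0.00 with the replicate block and without antagonist replicate 3. The other 8 came from leaving out single arrays. With 1 array left out, Sirt1 ranged from -0.011 to 0.084, Sirt3 from -0.30 to 0.17, Sirt5 from -0.13 to 0.20 and Parp1 from -0.081 to 0.029, and outside the 9 genes Afmid ranged from -0.002 to 0.17. The number of genes called by limma over all 15294 was 0 in the planned fit (704 at an unadjusted p under 0.05) and under the alternatives of filter, normalization, probe choice, variance model, array weights and replicate block. It ranged from 0 to 2058 with 1 array left out, with 1319 without sham replicate 1 and 2058 without sham replicate 2.

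The median difference of the 9 genes was 0.0073 with the 60th percentile filter, which dropped Nnmt, 0.00 with the replicate number as a block and 0.067 among genes with 5 different values, where Nampt alone remained (1 gene higher and 0 without overlap). It ranged from -0.026 to 0.029 with 1 array left out. The number of the 9 genes without overlap was 2, Nmnat1 and Nnmt in place of Nmrk2, after a second quantile normalization and after centring each array on its median, and from 1 to 6 with 1 array left out. The number higher ranged from 3 to 5. The replicate block changed no call: 0 genes passed. The numbers were not taken as pairs, because no label says that they mark pairs. Deviations of same-numbered arrays from their group means correlated at -0.11 and 0.03. With 2 sham arrays these deviations mirror each other, so the correlations cannot tell whether the numbers mark pairs. For the other lists 121 of 609 alternative counts and medians moved, and the cause was not tested. The 1 array per heart and the small groups limit what could be detected.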

Other observations

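Among 3990 other tested genes with 5 different values, those whose deviations over the 5 arrays were closest to Nampt were Oxa1l, Ivns1abp, Ncoa3, Xrcc5 and Arhgap26. Their root mean square distance from Nampt was 0.013 to 0.019 on the log2 scale, beside a spread of 0.052 for Nampt itself. Oxa1l, which encodes an insertase of the inner mitochondrial membrane, measured 9.80, 9.73 and 9.86 in antagonist hearts and 9.77 and 9.69 in sham hearts, a log2 difference of 0.068. Genes of small spread lie close to one another on this measure, so the likeness is a description of 5 arrays.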
